A study of Mus musculus with 12 samples.

Results

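Regions of chromatin that carried an estrogen receptor α (ERα) peak in both mammary gland libraries with mutant Esr1 (Y541S), in neither library with wild-type Esr1 (WT), and no progesterone receptor (PR) peak in any library are described here. They were chosen by the presence and absence of deposited peaks alone: the peaks of 8 libraries were merged wherever they overlapped by 1 bp or more, giving 321963 regions, 314966 of them autosomal. Of the 42351 autosomal regions with an ERα peak in both Y541S libraries, 3158 (7.46%) met the rule. Because all 8 lists chose the members, peak presence and peak strength are given as a description, with no test. Whole mammary glands of mice carrying Y541S Esr1 or WT Esr1 were used; all animals were raised to 8 weeks, implanted with estradiol and progesterone (E2 and P4), and sampled 4 days after implantation. Each combination of receptor and genotype had 2 replicates, labelled 1 and 2; the labels do not say whether they came from separate animals, or from how many. Samples with a D542G receptor were not analysed here. The 8 lists held 64488 to 113695 peaks, over background coverages of 0.927 to 2.68 reads. The series title speaks of luminal cells whereas the sample labels give whole glands, in which fewer cells of a type and less binding per cell cannot be told apart.

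ERα is a ligand-activated transcription factor of the hormone-sensing luminal cells of the mammary gland. It binds DNA at palindromic estrogen response elements, at single arms of that palindrome and, without contacting DNA itself, through partners such as the AP-1 factors. PR is induced by ERα, recognises a different element and occupies many of the same enhancers. The Y541S change lies in the ligand-binding domain and is the mouse counterpart of a substitution found in endocrine-resistant human breast cancers, which holds the receptor in an active shape without ligand.

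Sequence was at hand for promoter windows only, and 5 of them are shown to let the bases under these regions be read beside those of a constant ERα region. Each line gives the 250 bases before a gene start on the gene's own strand, 5′ to 3′, from RefSeq on GRCm38.p6, the assembly equivalent to mm10. Capitals mark single arms of the estrogen response element (GGTCA or TGACC, called GGTCA elements here) and AP-1 elements (TGANTCA). The first 4 lines are windows that overlap a region of the class. Eif4ebp2, Adcy7 and Gm34618 are among its 8 best-ranked promoter regions, and Cd300c is its window with a full palindrome. Pitpnm3 belongs to a region with an ERα peak in all 4 ERα libraries and no PR peak.
Eif4ebp2, chr10:61452670-61452919, minus strand: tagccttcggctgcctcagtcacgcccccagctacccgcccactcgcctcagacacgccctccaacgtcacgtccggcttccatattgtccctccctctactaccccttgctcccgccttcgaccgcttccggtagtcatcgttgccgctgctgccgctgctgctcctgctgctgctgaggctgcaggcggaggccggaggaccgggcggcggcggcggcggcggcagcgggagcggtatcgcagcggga
Adcy7, chr8:88288816-88289065, plus strand: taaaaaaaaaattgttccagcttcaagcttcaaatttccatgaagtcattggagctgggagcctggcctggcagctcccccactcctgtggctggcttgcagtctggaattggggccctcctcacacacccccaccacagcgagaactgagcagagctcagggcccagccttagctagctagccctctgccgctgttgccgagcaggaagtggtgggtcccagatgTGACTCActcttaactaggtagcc
Gm34618, chr15:11964192-11964441, minus strand: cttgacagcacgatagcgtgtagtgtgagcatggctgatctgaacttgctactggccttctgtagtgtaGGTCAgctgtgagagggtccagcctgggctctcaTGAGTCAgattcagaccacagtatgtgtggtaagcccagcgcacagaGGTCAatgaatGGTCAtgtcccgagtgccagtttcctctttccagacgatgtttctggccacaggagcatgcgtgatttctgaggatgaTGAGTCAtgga
Cd300c, chr11:114960508-114960757, minus strand: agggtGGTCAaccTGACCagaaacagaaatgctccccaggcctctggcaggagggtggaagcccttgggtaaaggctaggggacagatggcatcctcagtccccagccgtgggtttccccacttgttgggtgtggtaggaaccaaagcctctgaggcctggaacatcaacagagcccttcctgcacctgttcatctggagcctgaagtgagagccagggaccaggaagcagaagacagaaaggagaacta
Pitpnm3, chr11:72135890-72136139, minus strand: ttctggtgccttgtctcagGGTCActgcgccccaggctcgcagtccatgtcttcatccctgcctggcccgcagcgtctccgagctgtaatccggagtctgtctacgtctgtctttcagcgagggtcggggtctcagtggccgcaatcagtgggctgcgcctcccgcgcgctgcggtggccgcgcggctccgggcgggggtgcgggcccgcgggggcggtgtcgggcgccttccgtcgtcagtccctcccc

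The Eif4ebp2 window, at the start of a gene for a repressor of cap-dependent translation, is 70% G or C with 34 CpG in its 300 bases and holds neither element. Adcy7, which encodes an adenylyl cyclase, has 1 AP-1 element, which lies inside the region, and no GGTCA element. Of the 3 GGTCA elements and 2 AP-1 elements in the window of the predicted gene Gm34618, 1 of each lies inside the region. The palindrome of Cd300c, a receptor gene of myeloid cells, is complete (GGTCANNNTGACC) but sits at 114960740 to 114960752, 130 bp beyond the edge of the region. In the Pitpnm3 window the single GGTCA element lies inside its constant region, and in the windows of 2 other constant regions without PR peak, Gm21123 and Gm10851, 3 of 3 and 0 of 2 do. The other best-ranked promoter regions of the class lay at Sulf2, a heparan sulfate endosulfatase gene, at Heg1, and at the predicted or unnamed genes Gm52049, Gm15411 and 4930570G19Rik.

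Few of the Y541S-only, PR-free regions lay at promoters, as in the other 2 classes without PR peak. The promoter table covers 18 autosomes and lacks some gene starts there. The region at Fabp4, for example, was 864804 bp from the closest listed start. A promoter window (250 bases before to 50 after a gene start) was overlapped by 16 of 579 WT-only and 46 of 1545 constant regions without PR peak. At WT PR sites it was 133 of 1925, a larger share than in the classes without PR peak. Of the Y541S-only, PR-free regions, 89 of 3042 overlapped 103 of 31365 windows, which is 0.328% of the windows. Their 103 windows held a GGTCA element in 37.9% of cases, against 40.7% of 162 windows at Y541S-only regions on WT PR sites, 37.5% of 16 at WT-only regions without PR peak, 72.2% of 54 at constant ERα regions without PR peak and 40.7% of all 31223 distinct windows. The share was near that of promoters at large in these first 3 classes and higher at constant ERα windows; no test was made. GGTCA elements were also counted per length inside the part of the window that a region covers. The density was 1.99 per kb at Y541S-only, PR-free regions (33 elements in 16611 bases) and 1.41 at WT PR sites (48 in 33960). It was 2.59 at WT-only regions, from only 8 elements in 3089 bases, and 3.59 at the constant ones (40 in 11142). Over all windows it was 1.82. Within classes the share was split by peak strength. In the Y541S-only, PR-free class the GGTCA element was present in 38.6% of the 88 windows under regions with −log10 p below 5 in the weaker Y541S list and in 33.3% of the 15 windows under stronger ones. At constant regions the same split gave 55.0% of 20 and 82.4% of 34.

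A full palindrome was present in 1 window of the Y541S-only, PR-free class, 1 at constant regions and 23 of all windows. AP-1 elements were found in 8.74% of the windows of the class and 7.83% of all windows. Forkhead elements (GTAAACA), recognised by the pioneer factor FOXA1, were found in 2.91% and 3.71%, GATA elements (AGATAA) in 8.74% and 11.1%, and single arms of the progesterone response element (AGAACA) in 17.5% and 18.9%. No window of the class held the full progesterone element (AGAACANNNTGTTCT), against 3 of all windows. Single arms are contained in their own palindromes, both strands were searched, and a match is a description of letters and not of a bound site.

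These regions were weaker and narrower than constant ERα regions, and near the reverse class in both measures. The median −log10 p of the strongest peak of a region was 4.39 in Y541S ERα replicate 1 and 4.11 in replicate 2, against 10.7 and 7.16 for the 1601 constant ERα regions without PR peak. The deposited fold enrichment had a median of 3.08 and 3.31 at Y541S-only, PR-free regions and 5.17 and 4.37 at constant ones. In reads, the summit of a typical region was covered 10 and 9 times, where 2.29 and 1.72 were expected locally. Constant regions had a median of 20 and 14 reads at the summit. The Y541S-only ERα regions that coincided with PR peaks in both WT PR libraries, of which there were 1972, lay between, with a median −log10 p of 5.28 and 4.79. The reverse class, 596 WT-only ERα regions without PR peak, had medians of 4.39 and 4.19 in WT ERα replicates 1 and 2. Median region width was 366 bp in the Y541S-only, PR-free class, 342 bp in the WT-only one, 687 bp at WT PR sites and 549 bp at constant regions, where peaks of more libraries are merged into 1 region.

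**Figure D1:**
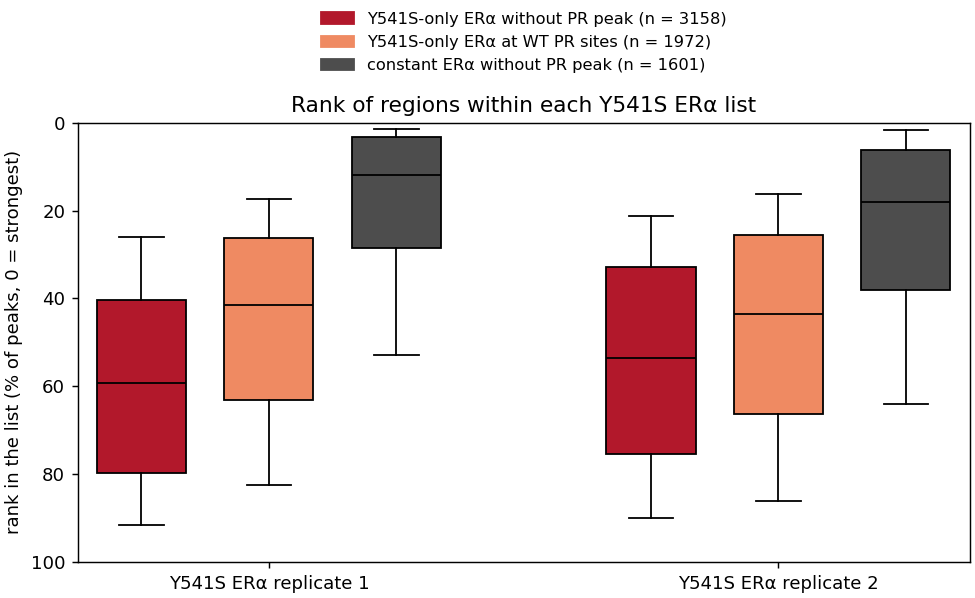
Rank of the strongest peak of each region within the Y541S ERα lists of replicates 1 and 2, as a percentage of the list with 0 at the strongest peak; boxes give the quartiles and median, whiskers the 10% and 90% quantiles. Y541S-only regions without PR peak have medians of 59.2% and 53.6%, those at WT PR sites 41.5% and 43.5%, and constant regions without PR peak 12.0% and 18.0%.

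Strength in one replicate was only loosely related to strength in the other. Across the 3158 regions the Spearman correlation of −log10 p between Y541S replicates 1 and 2 was 0.15, against 0.11 at WT PR sites, 0.65 across the 1601 constant regions and, between the WT replicates, 0.089 across WT-only regions without PR peak. These describe regions that share 2 libraries and a threshold, which narrows the range of weak classes. At −log10 p of at least 5, 1034 regions passed in replicate 1 and 871 in replicate 2, but only 358 (11.3%) in both. At 10 or more there were 41 and 33, and 3 in both. Just inside the rule, the weakest region lay 35.5 kb from Ecrg4 on chromosome 1, with −log10 p of 2.02 in replicate 1 and 5.99 in replicate 2. One within Ptbp3, an RNA-binding splicing regulator gene, had 2.96 and 2.03, and regions 6.24 kb from N4bp1 and 41.5 kb from Far1 had 2.04 in replicate 1. Just outside it were 2329 regions with both Y541S ERα peaks, no PR peak and a single WT ERα peak. In 1792 of these the WT peak was in replicate 1, with a median −log10 p of 6.29, and in 537 in replicate 2, with a median of 4.64. A further 1883 regions missed the rule through a single PR peak.

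Summits of the replicates were also spread further apart at these regions than at constant ERα regions. The summits of the 2 Y541S ERα libraries were a median of 92 bp apart (quartiles 41 and 162 bp) in the Y541S-only, PR-free class, and 43 bp apart (19 and 94 bp) at constant regions. They lay within 50 bp of each other in 30.1% and 55.4% of regions. At Y541S-only regions on WT PR sites the summits were further apart still, with a median of 108 bp and 28.3% within 50 bp. The distance was also read in broad ranges of strength, which do not match the stronger list. With −log10 p from 3 to below 5 in the weaker list, the median distance was 93 bp over 2199 regions of the class and 71.5 bp over 482 constant regions, and from 5 to below 10 it was 68 bp over 355 and 51 bp over 614. The part of peak strength in the difference was not tested. The 596 regions of the reverse class, which carried ERα peaks in each WT library, none in Y541S and no PR peak, had a median of 86 bp between the 2 WT summits.

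**Figure D2:**
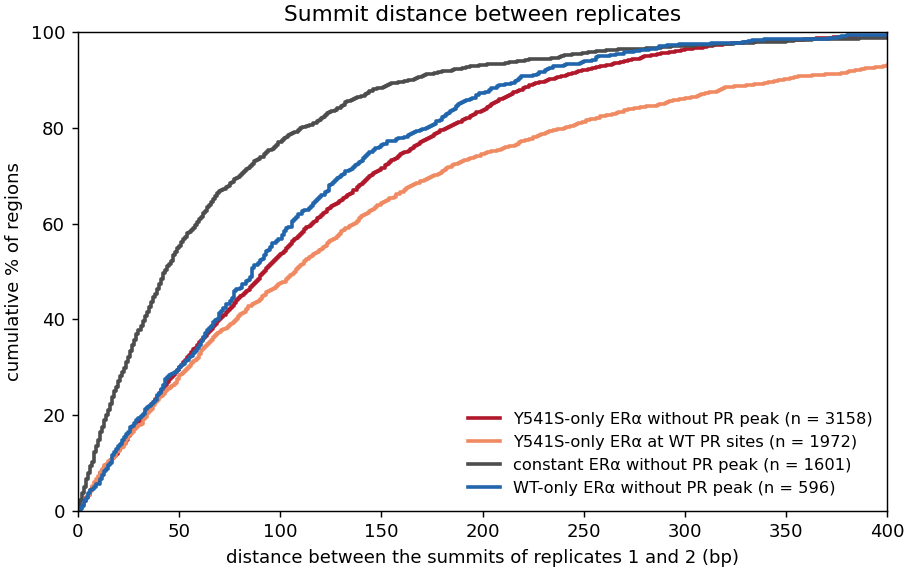
Cumulative percentage of regions by the distance in bp between the summits of replicates 1 and 2, measured in the Y541S ERα lists and, for WT-only regions, in the WT ERα lists. The curve of constant regions rises first, with 55.4% of regions within 50 bp, while Y541S-only regions without PR peak reach 30.1%. WT-only ones reach 30.0% and Y541S-only regions at WT PR sites 28.3%.

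The 10 best-ranked regions were followed individually. They were ranked by the weaker of both Y541S lists. The first lay on chromosome 10 at 111832079 to 111832765, 140 kb from Krr1, a ribosome biogenesis gene. It was covered 27 times in Y541S replicate 1 and 42 times in replicate 2, against local expectations of 3.60 and 4.85, and its summits were 10 bp apart. The region at the start of Eif4ebp2 had 26 and 21 reads where 3.98 and 3.02 were expected (fold 5.42 and 5.48). It began 0.132 kb from a region with an ERα peak in all 4 ERα libraries, and so had WT ERα peaks called next to it. On chromosome 13, at 40690953 to 40691322, a region 22.7 kb from Tfap2a, the gene of the epithelial transcription factor AP-2α, had 23 and 14 reads against expectations of 2.29 and 1.72, the highest −log10 p of the class in replicate 1 (16.1). Its deposited fold of 7.30 in replicate 1 and 5.52 in replicate 2 came with summits 25 bp apart.

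Among the others, a region on chromosome 6 at 114364486 to 114365092 lay 33.1 kb from Hrh1, a histamine receptor gene, with fold 5.60 and 5.30. Regions inside Mapk4, an atypical MAP kinase gene, and Stk10, a lymphocyte-oriented kinase gene, had folds of 6.69 and 4.94, and of 4.44 and 4.30. The region in Stk10 was 0.953 kb from a constant ERα region. Another inside Rfx4 had 5.30 and 4.79. Regions 87.1 kb from Zfp970, 24.0 kb from Ttr, which encodes the thyroxine carrier transthyretin, and 134 kb from Tcf4, an E-protein transcription factor gene, completed the 10. Of these, 3 lay inside a coding gene, and the summits of both replicates were at most 41 bp apart in 8, against 100 bp in Mapk4 and 139 bp at Ttr.

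Most of the class lay away from gene ends. Of the 3158 regions, 6.36% (95% Wilson interval 5.57 to 7.27%, counting error only) had their midpoint at most 1 kb from the start or end of a coding gene, on either side of it. Inside coding genes lay 48.6%, and outside all of them 51.4% (49.7 to 53.2%). The classes with which it was compared had similar shares outside genes, 50.4% at WT PR sites and 51.2% at constant regions without PR peak, but WT-only regions without PR peak had 39.3% (35.4 to 43.2%). At gene ends the shares were 7.86% at WT PR sites, 4.997% at constant regions and 9.90% (7.75 to 12.6%) among WT-only regions. The intervals treat regions as independent and say nothing of the spread between animals or libraries, and no test between classes was made. With each list cut to its 20000 strongest peaks, 30.7% of 799 regions were at gene ends, and with all annotated genes in place of coding genes the share was 11.1%.

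Constant ERα regions were found near fewer of these regions than of the other classes. A region with a peak in all 4 ERα libraries was found within 10 kb of 21.8% (20.4 to 23.3%) of the Y541S-only, PR-free regions, 26.6% (24.7 to 28.6%) of those at WT PR sites, 28.7% (26.6 to 31.0%) of constant PR-free regions, counting other constant regions, and 33.9% (30.2 to 37.8%) of WT-only PR-free ones. The median distance was 30.5 kb, against 24.4, 24.7 and 17.8 kb. With each list cut to its 20000 strongest peaks the share of the class was 12.5%, and within replicate 1 alone it was 37.7%. A peak of at least 1 library was closer. A WT ERα peak lay within 0.5 kb of 13.5% of the Y541S-only, PR-free regions and within 10 kb of 70.9%, and a PR peak within 0.5 kb of 20.5% and within 10 kb of 83.9%.

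**Figure D3:**
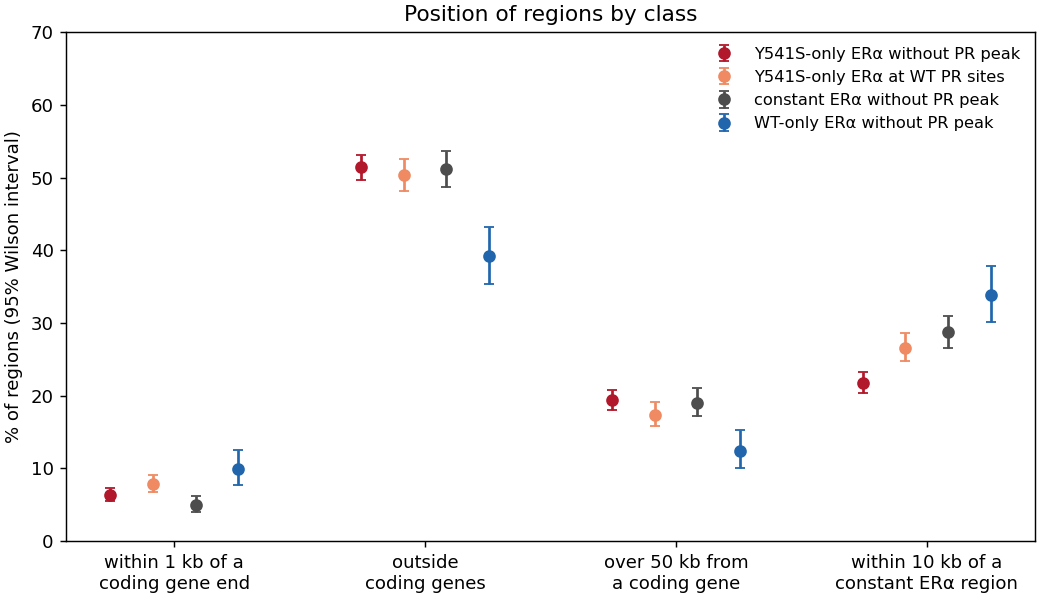
Percentage of regions (points, with 95% Wilson intervals) within 1 kb of a coding gene end, outside coding genes, over 50 kb from a coding gene, and within 10 kb of a region with an ERα peak in all 4 ERα libraries. Y541S-only regions without PR peak are at 6.36%, 51.4%, 19.4% and 21.8%, and WT-only regions without PR peak at 9.90%, 39.3%, 12.4% and 33.9%.

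Across chromosomes the share of the class among the regions with both Y541S ERα peaks varied. It was lowest on chromosome 17, at 6.11% (5.10 to 7.30%), and highest on chromosome 6, at 8.85% (7.78 to 10.05%). The intervals of these 2 did not overlap, but they were picked as the extremes of 19 autosomes and no test was made. Regions of the class were mostly solitary: the median distance to the closest other one was 168 kb, and 18.8% had another within 50 kb. No 50 kb stretch held more than 3, and 23 stretches held 3. The tightest lay on chromosome 19 at 44882841 to 44895710, 12.9 kb long, with Slf2, a gene of DNA damage repair, as closest gene. The next was on chromosome 2 at 156840385 to 156857728 near Tgif2, a gene of a corepressor in TGF-β signalling, and another lay on chromosome 5 at 15036050 to 15054891.

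At the level of genes, 1348 of 20661 autosomal coding genes (6.52%) held at least 1 region midpoint of the class and 35 (0.169%) held 3 or more. Wnt5b, which encodes a non-canonical Wnt ligand, held 4 in 112 kb, 3 of them between 119499350 and 119544949 on chromosome 6. Only 1 region with peaks in all 4 ERα libraries lay inside Wnt5b. Ttll5, a tubulin glutamylase gene that also acts as a steroid receptor cofactor, held 4 in 229 kb beside 4 constant ERα regions, and Tmcc3 and Syn3, a synapsin gene, held 4 each beside 10 constant ones. Plod2, which encodes a collagen lysyl hydroxylase, had the highest density, with 3 in 68.8 kb (4.36 per 100 kb), followed by Wnt5b at 3.56, Aatf at 3.31, the potassium channel gene Kcnk13 at 3.01 and the collagen gene Col15a1 at 2.84. Stox2 and Ralgps1 also held 3 each.

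Of 9 genes of the hormone axis examined, 1 (Wnt4) had a region of the class within 50 kb, where 21.6% of all autosomal coding genes had one; with so few genes nothing is read from this share. Wnt4, the ligand that carries the progesterone signal to neighbouring cells in side branching, held 1 at 137287934 to 137288289 on chromosome 4, with 15 reads in Y541S replicate 2 against an expectation of 2.22 and a fold of 3.59 and 4.97 in replicates 1 and 2. Esr1, Pgr, Greb1, Areg, Tnfsf11, Foxa1, Gata3 and Prlr had none within 50 kb, and within 100 kb Greb1, Tnfsf11 and Pgr had 1 each. Constant ERα binding was present at several of these. Greb1 had 13 constant ERα regions within 50 kb, Esr1 6, Pgr 4, and Tnfsf11 and Prlr 2 each, while Areg, Foxa1, Gata3 and Wnt4 had none.

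Gene lists were read against all autosomal coding genes, of which 4463 (21.6%) had a region of the class within 50 kb, with a median of 0 per gene and a median gene length of 17.5 kb. That count was 17740 genes without Y541S ERα replicate 1, 16936 without replicate 2 and 646 with −log10 p of at least 5 for presence. Among estrogen response genes 3 of 23 (13.0%) had one, and among hormone-sensing luminal genes 2 of 17 (11.8%). A constant ERα region lay within 50 kb of 91.3% of the estrogen response genes and 58.8% of the hormone-sensing luminal genes, against 75.5% of all genes. Progesterone paracrine genes had 4 of 13, luminal progenitor and alveolar genes 3 of 16, and cell cycle genes 5 of 20. The largest shares were seen for nuclear receptor coregulators (8 of 18, 44.4%), for growth factor receptors and ligands (8 of 20) and for axon guidance receptors and ligands (8 of 20). Genes of these 3 lists were long, with medians of 97.9, 82.8 and 166 kb. Lists with medians below 17.5 kb lay on both sides of 21.6%. Above it were basal and myoepithelial (37.5%, 12.6 kb), adipocyte (31.25%, 11.3 kb), progesterone paracrine (30.8%, 14.9 kb) and cell cycle genes (25%, 14.5 kb). Below it were estrogen response (12.8 kb), hormone-sensing luminal (16.6 kb) and immune genes (18.75%, 10.995 kb). The part of length in the shares was not tested. The median per gene was 0 in each of the 12 lists, as it was over all genes.

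**Figure D4:**
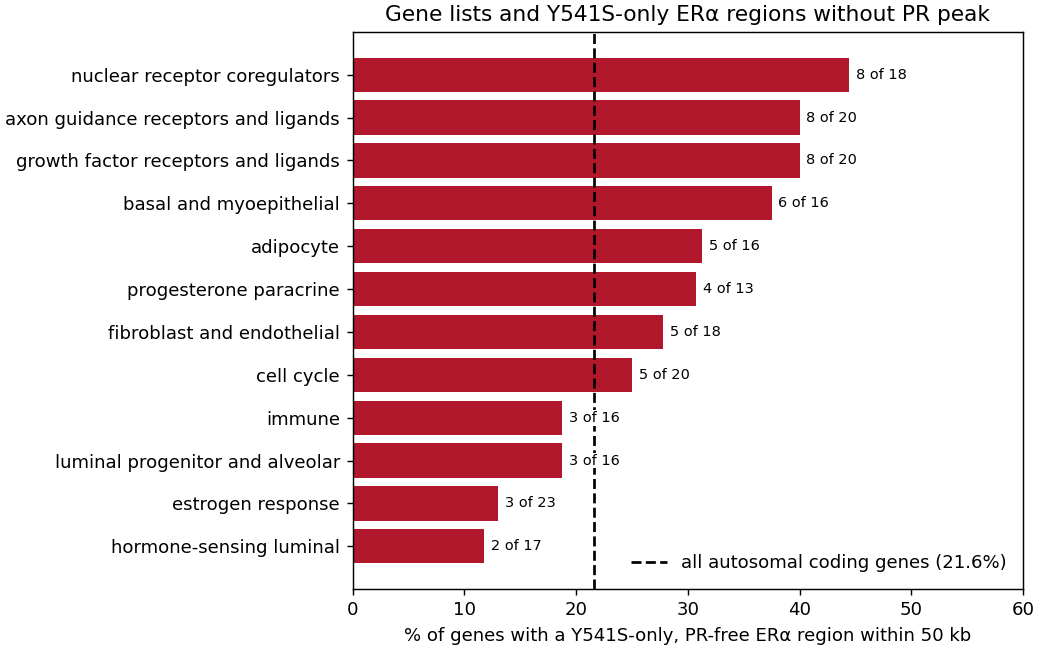
Percentage of the genes of each of 12 lists with a Y541S-only ERα region without PR peak within 50 kb, with counts beside the bars and the 21.6% of all autosomal coding genes as a dashed line. Nuclear receptor coregulators reach 8 of 18 genes, and hormone-sensing luminal genes 2 of 17.

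Among coregulators, Ppargc1a, a coactivator of nuclear receptors in energy metabolism, held 3 regions inside its 662 kb. The best-ranked of them by the weaker list had −log10 p of 5.65 in Y541S replicate 1 and 4.89 in replicate 2, and another had 3.86 and 9.30. Its relative Ppargc1b held 2, and Tle3, a Groucho corepressor that works with FOXA1, had 3 within 50 kb and 1 inside. Ep300, the acetyltransferase p300, had 2, and Ncoa2, Med1, Kmt2c and Carm1 had 1 each. Ncoa1, Ncoa3, Ncor1, Nrip1 and Crebbp were among those with none, while all 18 genes had a constant ERα region within 50 kb.

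Of growth factor genes, Egfr, the receptor of amphiregulin, had 2 regions outside its span, 5.03 and 22.5 kb away, the closer with −log10 p of 7.65 in replicate 1 and 4.11 in replicate 2. Fgf2, Igf1r and Nrg1 held 1 each, and Erbb2, Erbb4, Igf1 and Fgfr1 had 1 nearby. Among axon guidance genes Slit3, a secreted ligand of Robo receptors, held 3 in 587 kb, and Nrp1 and Plxna4 held 1 each. Plxna2, Plxnb1, Sema3c, Sema6a and Robo2 had 1 within 50 kb. In the estrogen response list Slc7a5, an amino acid transporter gene, had 2 regions beside 10 constant ones, Ret held 1 and Igfbp5 had 1. Rspo1, a Wnt agonist of the progesterone list, had 2, Adamts18 held 1 and Tnfrsf11a, which encodes RANK, had 1. Spdef and Prom1 were the hormone-sensing genes with 1 each. Cdk6 held 1 and Cdk1, Cdk2, Ccna2 and Mcm2 had 1 nearby.

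Genes that mark other cells of the gland were among those with such regions. The shares are read beside the 21.6% of all autosomal coding genes with a region of the class within 50 kb. With so few genes per list, nothing is read from them. Basal and myoepithelial genes had one in 6 of 16 cases (37.5%). Mylk, a kinase gene active in smooth muscle contraction, held 2, the stronger with −log10 p of 5.93 in Y541S replicate 1 and 13.2 in replicate 2, and Sox10 had 2 nearby, one 0.730 kb from the gene. Itgb1 held 1, and Myh11, Oxtr and Cav1 had 1 nearby. Of adipocyte genes 5 of 16 (31.25%) had one, and all 16 had a constant ERα region within 50 kb. The region at Fabp4, the fatty acid binding protein of fat cells, overlapped an end of the gene, with its midpoint 0.023 kb outside. It had −log10 p of 6.22 and 6.05. Retn had 2, and Cebpa, Pnpla2 and Lipe had 1 each. Fibroblast and endothelial genes had one in 5 of 18 cases, or 27.8% (Pecam1, Vwf, Tek, Col1a1 and Thy1). Immune genes had one in 3 of 16, or 18.75% (Itgam, Nkg7 and Lyz2), and luminal progenitor and alveolar genes had the same share. Among luminal progenitor genes, Itga2 had 2, and Lalba and Sox9 had 1 each, the one at Sox9 2.37 kb from the gene. Which cells gave these peaks was not tested.

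Y541S-only regions without PR peak outnumbered WT-only ones under the deposited lists (3158 against 596) and under the 8 other settings that kept all 8 libraries and compared both replicates. Of the 42351 autosomal regions with both Y541S ERα peaks, 9638 had no WT ERα peak, and the 3158 are the 32.8% of these with no PR peak either. The lists differ in length, with 106926 and 105612 peaks for Y541S ERα replicates 1 and 2 and 72566 and 64488 for WT ERα replicates 1 and 2. When each list was cut to its top 20000 peaks, the counts were 799 Y541S-only and 461 WT-only regions. Regions with a peak in a single one of the 8 lists were far more frequent: 32882 and 41877 for Y541S ERα replicates 1 and 2, and 17610 and 22896 for WT ERα replicates 1 and 2. The class depends on both Y541S libraries. Without replicate 1 of Y541S ERα the rule gave 45539 regions and without replicate 2 36522. Without WT ERα replicate 1 it gave 4973 Y541S-only regions. Leaving out a WT ERα library also turned the order of the classes, with 23652 WT-only regions without WT ERα replicate 1 and 18329 without replicate 2, since 1 library then decides presence.

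**Figure D5:**
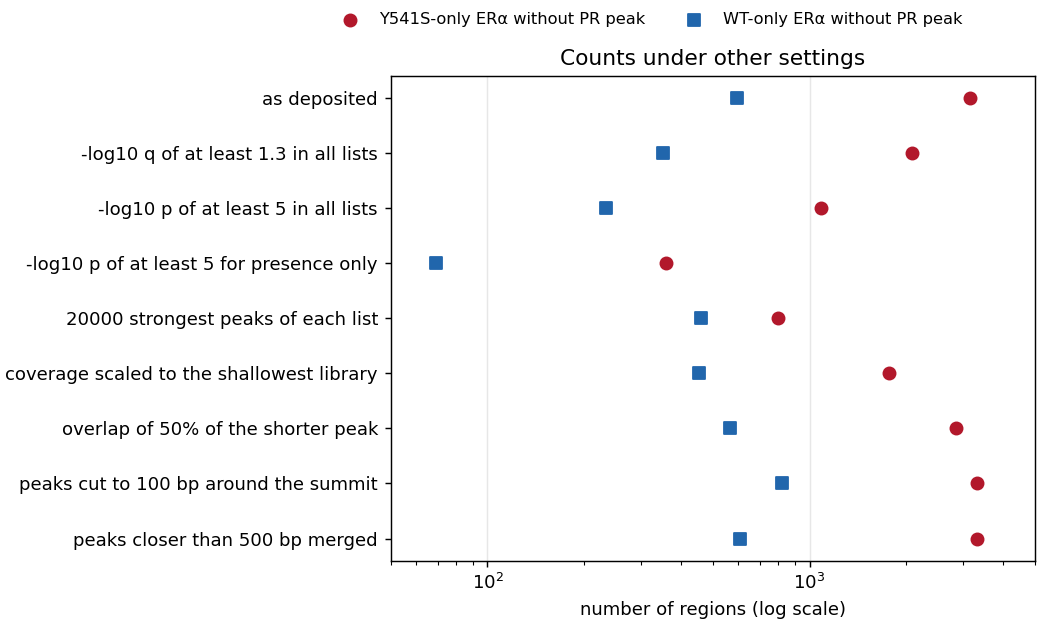
Number of Y541S-only (circles) and WT-only (squares) ERα regions without PR peak, on a log scale, as deposited and under 8 other settings that use all 8 libraries. Counts are 3158 and 596 as deposited, 799 and 461 in lists of 20000 peaks, and 358 and 69 when the peaks that define a class need −log10 p of at least 5.

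Depth was compared through the background. The background coverage recovered from the deposited values was 2.29 in Y541S ERα replicate 1 and 2.39 in WT ERα replicate 1, but 1.72 in Y541S ERα replicate 2 and 1.303 in WT ERα replicate 2. Scaled to the background of the WT library with the same number, the summit coverage of 99.1% of the 3158 regions in replicate 1 and 90.1% in replicate 2 gave −log10 p of at least 2, a value that every deposited peak exceeds, and 89.3% did in both. In replicate 1 the WT background was the higher one, so that the share there does not describe a loss of depth. Even so, 3131 of the 3158 regions reached 2 in replicate 1, so the scaling did not strengthen every region. The regions were chosen for having a peak in these lists, so these shares are a description, and they do not cover the length a peak must have to be called. With the coverage of all 8 libraries scaled to the shallowest one and rounded down in the same way, 1761 Y541S-only and 453 WT-only regions without PR peak were left.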

How the data were processed

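ERα and PR ChIP-seq of whole mammary glands was used, 2 libraries for each receptor and genotype. Per the labels' protocols, chromatin was sheared to 300 to 500 bp and 30 µg was precipitated with 4 µg of antibody. The authors deposited 1 narrowPeak list per library, on mm10 per the submitters' processing notes; aligner, peak caller and use of input for calling are not given in the sources used here. A deposited peak has a score that follows its p, a fold enrichment (a ratio, not scaled between libraries), and a −log10 p and −log10 q, which are the authors' values and describe peaks within a list. Whole-number summit coverage was recovered from the deposited fold and −log10 p (tolerance 1e-04; at least 99.9956% of peaks), and its lowest expectation was taken as background coverage. Peaks were ranked by −log10 p, then by fold and position.

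Merging used Python 3.11.15 with pandas 2.3.3, was tested on simulated data, and counted an overlap of 1 bp. Genes were the 20661 autosomal coding genes of RefSeq (GRCm38.p6). A region was linked to genes within 50 kb of its midpoint, and distances to coding genes were taken from that midpoint. The promoter table lacks 1 autosome and some gene starts on the others, and no genome was used. Of 215 list entries 213 matched, 2 by synonym; Cited1 is not autosomal. The members and lists were chosen with earlier results of these data known. No statistical test was made, because the lists that chose the members are the measurement; intervals are 95% Wilson and cover counting error only.

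Genes and regions were named by rule: the 10 best-ranked regions, the 10 genes with most regions inside and the 5 densest, 9 hormone-axis genes, up to 3 per list, the 8 best-ranked promoter regions (of which some are shown), the 3 tightest groups and the 4 weakest regions. Cd300c, Pitpnm3 and the further list genes with 1 or more regions were named after their values were seen. Alternatives were other thresholds, list lengths, scaled coverage, overlaps, distances, gene sets and leaving out libraries.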

Additional observations from a re-analysis of the deposited data

How the results depend on the processing

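The number of Y541S-only ERα regions without PR peak, 3158 as deposited, was 2074 with −log10 q from 1.3 upwards and 1083 with −log10 p from 5 upwards in all lists, 358 when that threshold was set for presence only, 799 in lists of 20000 peaks and 1761 with scaled coverage. It ranged from 3336 to 45539 when 1 library was left out. Within replicate 1 it was 44250 and within replicate 2 53582, where 1 library decides presence. WT-only regions without PR peak numbered 22627 within replicate 1 and 27675 within replicate 2. In the order of these settings (q, p in all lists, p for presence, 20000 peaks, scaled coverage), the gene-end share of 6.36% was 7.71, 9.60, 8.10, 30.7 and 7.33%. It was 8.67% with peaks cut to 100 bp around the summit, 4.50% with peaks closer than 500 bp merged, 5.29% within replicate 2, 17.6% at 5 kb, 11.1% with all annotated genes and 4.72 to 7.28% with 1 library left out. The share outside genes of 51.4% was 53.2% at the q threshold, 57.3% with −log10 p of 5 for presence, 48.97% with peaks closer than 500 bp merged, 44.8% and 46.4% within replicates 1 and 2, 41.9% with all annotated genes, and 44.9 to 51.5% with 1 library left out. The share within 10 kb of a constant ERα region, 21.8%, was 16.3% and 28.5% with −log10 p of 5 in all lists and for presence only, 12.5% in lists of 20000 peaks, 37.7% and 26.0% within replicates 1 and 2, 64.6% at 50 kb, and 18.97 to 31.5% with 1 library left out. The cause of these moves was not tested, except that fewer libraries loosen the rule by construction. No paired analysis was possible because the results come from no test, so that no fit can take a replicate block. The recounts within replicates 1 and 2 compare libraries with the same number, as counts alone. Summits of the class were covered a median of 10 and 9 times in Y541S ERα replicates 1 and 2, and at least 6 and 5 times.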

Other observations

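On the sex chromosomes, which the rule leaves out, 57 regions had ERα peaks in both Y541S libraries and in no other list. Regions of the autosomal class lay within 1 kb of 3 annotated miRNA hairpins: Mir7011 on chromosome 3, at 0.189 kb, Mir146 on chromosome 11, at 0.702 kb, and Mir6942 on chromosome 13, at 0.736 kb. Mir146 encodes a miRNA known for restraining innate immune signalling. The region there ranked at 72.7% of the list in its weaker Y541S library. The region linked to Cebpa, a gene of the adipocyte list, on chromosome 7, at 35156663 to 35156972, overlapped the start of the predicted gene Gm35889.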
